A study of Mus musculus with 6 samples.

Results

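The genes described are 10 that mark the ovarian surface epithelium and the mesothelium, the related cell sheet that lines the body cavities: the regulators Wt1, Gata6, Nr2f2 and Bnc1, the sialomucin gene Podxl, the uroplakin genes Upk3b and Upk1b, the leucine-rich repeat gene Lrrn4, and the surface glycoprotein genes Msln and Muc16. They were chosen by name, with earlier results of these data known. Each was found among the 25006 Ensembl identifiers of the count tables by its mouse symbol, and all 10 were among the 12313 genes with enough counts to be tested. Their expression was compared between MOSE-PAX8, a mouse ovarian surface epithelial (MOSE) line that overexpresses the transcription factor PAX8, and its reference line MOSE-NEO, with 3 RNA sequencing libraries each. Both lines were kept under the antibiotic G418 at 0.05 mg/mL. The labels give 1 line per group, so PAX8 and any other difference between the lines cannot be told apart, and no label says whether a line's libraries were grown separately, so each p-value reflects only how far these libraries differ from one another, which may be technical.

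The ovarian surface is covered by a single sheet of cells that arises from the coelomic epithelium and keeps both epithelial and mesenchymal features. The zinc finger factor WT1 and the GATA factors GATA4 and GATA6 act in the coelomic epithelium and the gonad that forms beneath it, and the nuclear receptor COUP-TFII, the product of Nr2f2, acts mainly in mesenchyme. Mature surface and mesothelial cells carry a glycoprotein coat on their free face, to which podocalyxin, mesothelin and the mucin MUC16 contribute, and MUC16 binds mesothelin. Fallopian tube epithelium, another candidate origin of serous ovarian carcinoma, normally makes PAX8, and ovarian surface cells normally make little or none.

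The libraries held 30621528 to 36367825 counts in MOSE-PAX8 and 23623762 to 32057173 in MOSE-NEO. Pax8 itself had 2570, 2973 and 3544 counts in the MOSE-PAX8 libraries and 0, 1 and 1 in the MOSE-NEO libraries. One library of each line stood apart by its lincRNA share, MOSE-PAX8 replicate 2 at 0.33% and MOSE-NEO replicate 1 at 0.317%, against 0.146% to 0.195% in the others. With both left out, the number of the 10 genes called in each direction was the same as with all libraries. The defining surface genes were present in part. Upk3b, Upk1b, Podxl, Lrrn4 and Wt1 each stood above at least 99.1% of tested genes in MOSE-PAX8 and at least 99.5% in MOSE-NEO, whereas Calb2 (calretinin, a mesothelial marker in pathology) had 1 count in MOSE-PAX8 and 0 in MOSE-NEO, and E-cadherin (Cdh1) had 3 counts in MOSE-PAX8 and 1 in MOSE-NEO.

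Most of the 10 genes were lower in MOSE-PAX8. Podxl, Lrrn4, Upk1b, Wt1, Upk3b, Gata6 and Bnc1 fell, by between 2.29-fold (Podxl) and 1.21-fold (Bnc1), Nr2f2 rose 1.89-fold, and Msln and Muc16 did not pass the test. In bulk RNA, fewer cells of a type and less RNA per cell cannot be told apart. Calls rest on edgeR's quasi-likelihood test with Benjamini-Hochberg adjustment over all tested genes, at a threshold of 0.05. Of all tested genes 16.1% were called lower and 17.9% higher, and of the 2644 genes with at least 100 CPM (counts per 1000000 counts of a library, scaled with TMM factors) in MOSE-NEO 21.9% were called lower, against 7 lower and 1 higher of these 10. A called fall of at least 1.5-fold was found for 5 of the 10 (Podxl, Lrrn4, Upk1b, Wt1 and Upk3b) and for 7.48% of tested genes. All MOSE-PAX8 libraries lay below all MOSE-NEO libraries for 8 of the 10 and for 22.2% of tested genes, and above them for 1 of the 10 and for 25.3%. The median log2 fold change was -0.7 over the 10 genes and 0.01 over all tested genes. Together the 10 genes took 0.792% to 0.892% of all counts in the MOSE-PAX8 libraries and 1.33% to 1.45% in the MOSE-NEO libraries, and these ranges did not overlap.

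**Figure D1:**
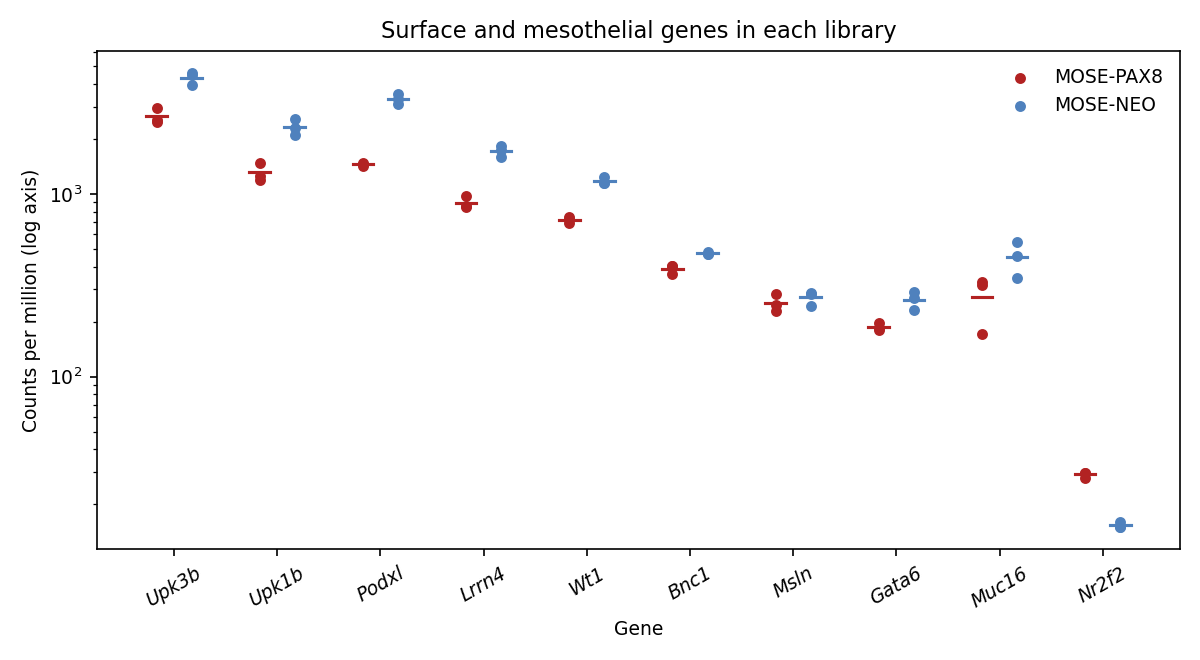
TMM-scaled CPM (log axis) of the 10 genes in each library, MOSE-PAX8 in red and MOSE-NEO in blue, ordered by level per length in MOSE-NEO. Points are libraries and bars are the means of 3. The red points lie wholly below the blue ones for 8 genes and wholly above them for Nr2f2, and those of Msln overlap.

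Promoter sequence is shown for 4 of the genes, so that those that fell can be set beside the one that rose. RefSeq promoter windows on GRCm38.p6 matched 5 of the 10 genes (Upk3b, Lrrn4, Bnc1, Nr2f2 and Muc16), and the 250 bases before the annotated start were used. Capitals mark matches, on either strand, to the letters GCGNGGGNG, which zinc finger factors of the WT1 and EGR kind can bind. The windows are Upk3b at chr5:136038246-136038495 on the plus strand, and, on the minus strand, Lrrn4 at chr2:132880863-132881112, Bnc1 at chr7:81992300-81992549 and Nr2f2 at chr7:70366747-70366996.
Upk3b: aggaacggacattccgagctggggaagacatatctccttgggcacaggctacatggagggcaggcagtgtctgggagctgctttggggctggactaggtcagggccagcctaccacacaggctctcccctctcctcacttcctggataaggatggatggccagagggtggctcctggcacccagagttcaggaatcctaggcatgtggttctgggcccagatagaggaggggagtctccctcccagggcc
Lrrn4: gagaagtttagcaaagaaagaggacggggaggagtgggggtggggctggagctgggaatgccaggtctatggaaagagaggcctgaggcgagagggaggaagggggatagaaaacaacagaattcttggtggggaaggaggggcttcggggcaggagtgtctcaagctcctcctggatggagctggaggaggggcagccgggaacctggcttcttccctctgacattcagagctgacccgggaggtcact
Bnc1: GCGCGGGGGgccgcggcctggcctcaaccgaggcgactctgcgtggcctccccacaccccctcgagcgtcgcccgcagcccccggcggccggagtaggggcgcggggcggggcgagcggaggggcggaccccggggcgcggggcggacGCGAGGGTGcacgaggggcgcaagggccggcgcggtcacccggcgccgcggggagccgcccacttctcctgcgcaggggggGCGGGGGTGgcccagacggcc
Nr2f2: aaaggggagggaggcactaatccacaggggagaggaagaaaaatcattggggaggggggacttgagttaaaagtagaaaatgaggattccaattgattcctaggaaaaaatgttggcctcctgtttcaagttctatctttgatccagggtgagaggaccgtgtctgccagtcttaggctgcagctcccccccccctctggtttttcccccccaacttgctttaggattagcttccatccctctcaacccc

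These windows differ in composition. The Bnc1 window is 83.6% G and C with 3 matches, at -250, -102 and -21 counted from the start, and the Upk3b, Lrrn4 and Nr2f2 windows are 60.8%, 59.2% and 50.0% G and C with none, against a median of 52.4% over 32851 windows. A match was present in 10.5% of those windows. The GATA motif AGATAA, present in 9.99% of windows, and the nuclear receptor repeat DR1 (AGGTCA repeated after a gap of 1 base), present in 0.0335%, had no match in the windows of any of the 5 genes on either strand. Matches to letters describe the sequence and do not show binding.

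Wt1, which encodes a zinc finger factor needed for the coelomic epithelium, kidney and gonad, is on chromosome 2 (105126529 to 105173616, plus strand). It stood at 745.9, 729.8 and 688.5 CPM in the MOSE-PAX8 libraries and at 1145, 1235.5 and 1145 CPM in the MOSE-NEO libraries. The lines did not overlap, and the highest MOSE-PAX8 library was well under the lowest MOSE-NEO library. The log2 fold change was -0.70 ± 0.08 (SE), with an edgeR adjusted p of 0.000363. Wt1os, a non-coding gene on the opposite strand whose start lies 18 bases from that of Wt1, without overlap, was 1.91-fold lower, at 27.8 to 36.0 CPM in MOSE-PAX8 and 49.1 to 67.8 CPM in MOSE-NEO (edgeR adjusted p = 0.00124). Wt1os was picked after its values were seen. Wt1 had 20.3 to 24.8 counts for each count of Wt1os in MOSE-PAX8 and 16.9 to 23.3 in MOSE-NEO, and these ranges overlapped. Counts per gene do not separate the splice forms of Wt1.

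Gata6, a GATA factor of the coelomic epithelium and of gonadal somatic cells, is on chromosome 18 (11052064 to 11085635). Its levels were 197.4, 183.6 and 179.2 CPM in MOSE-PAX8, against 230.5, 289.5 and 268.2 CPM in MOSE-NEO. The fall was 1.41-fold with no overlap of the lines (log2 fold change -0.49 ± 0.10 SE, edgeR adjusted p = 0.00515). Its relative Gata4 had 113.8 ± 6.15 CPM in MOSE-PAX8 and 93.0 ± 12.4 CPM in MOSE-NEO (SD, n = 3) and did not pass (edgeR adjusted p = 0.0615). There were 1.49 to 1.82 counts of Gata6 per count of Gata4 in MOSE-PAX8 and 2.79 to 2.91 in MOSE-NEO, so their proportion separated the lines. Gata3 was 1.69-fold lower, and Gata1 and Gata5 were too low to test. The non-coding gene 1010001N08Rik, picked after its values were seen, overlaps the start of Gata6 by 504 bases on the opposite strand and was 2.01-fold lower with 1058 counts in MOSE-PAX8 and 1803 in MOSE-NEO. Whether counting used strand is not known, so reads from the overlap cannot be told apart between these genes.

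Bnc1 encodes basonuclin 1, a zinc finger protein of basal keratinocytes, germ cells and mesothelium, and lies on chromosome 7 (81966672 to 81992292). It had 403.7, 403.2 and 362.0 CPM in MOSE-PAX8, against 465.7, 480.2 and 468.7 CPM in MOSE-NEO. This was the smallest of the called differences among the 10 genes, with MOSE-PAX8 replicate 3 the lowest library (log2 fold change -0.28 ± 0.08 SE, edgeR adjusted p = 0.0272). The call did not survive leaving out MOSE-PAX8 replicate 1 or 3 or MOSE-NEO replicate 2 or 3, with edgeR adjusted p of 0.0547, 0.14, 0.0735 and 0.066. The paralog Bnc2 was 1.48-fold lower, at 26.5 ± 3.16 CPM in MOSE-PAX8 and 39.3 ± 4.23 CPM in MOSE-NEO (SD, n = 3).

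Nr2f2 encodes COUP-TFII, a nuclear receptor of mesenchyme and veins, and lies on chromosome 7 (70351944 to 70366735, minus strand). It was the only one of the 10 genes called higher and the least abundant of them per length. Its levels were 28.0, 29.8 and 29.6 CPM in the MOSE-PAX8 libraries and 15.1, 16.0 and 15.1 CPM in the MOSE-NEO libraries. Spread within each line was small beside the gap between them (log2 fold change 0.92 ± 0.08 SE, edgeR adjusted p = 6.64e-05). Its paralogs Nr2f1 and Nr2f6 rose 1.44-fold and 1.36-fold (edgeR adjusted p = 0.00235 and 0.019). All 3 COUP-TF family members tested were thus called higher in MOSE-PAX8, beside 17.9% of all tested genes. The non-coding gene B130024G19Rik, picked after its values were seen, overlaps the start of Nr2f2 by 1826 bases on the opposite strand. It had 79 counts in MOSE-PAX8 and 11 in MOSE-NEO, few beside the 2931 and 1297 counts of Nr2f2 in those lines, and was called higher (edgeR adjusted p = 0.00776). The same limit on overlapping reads holds for this pair.

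Podxl encodes podocalyxin, a charged sialomucin of free cell surfaces that also coats kidney podocytes, on chromosome 6 (31519488 to 31563981). It stood at 1480.5, 1414 and 1448 CPM in MOSE-PAX8, against 3085, 3309 and 3535 CPM in MOSE-NEO. All MOSE-PAX8 libraries were under the lowest MOSE-NEO library, and this was the largest fall of the 10 (log2 fold change -1.19 ± 0.09 SE, edgeR adjusted p = 3.92e-05). Its 95% interval, -1.40 to -0.98, lay wholly below that of Bnc1, -0.46 to -0.09. Proteins that tie podocalyxin to actin are made by Ezr (ezrin), which was 1.27-fold lower, and Slc9a3r1 (NHERF1), which was 1.59-fold lower, while Slc9a3r2 (NHERF2) had 50.1 ± 6.64 CPM in MOSE-PAX8 and 48.4 ± 2.12 CPM in MOSE-NEO (SD, n = 3). Per length, Podxl reached 0.279 to 0.321 of the level of Ezr in MOSE-PAX8 and 0.54 to 0.542 in MOSE-NEO, ranges that did not overlap. The paralog Podxl2 had 18.8 ± 1.01 CPM in MOSE-PAX8 and 18.2 ± 2.23 CPM in MOSE-NEO and was not called, and Cd34 was too low to test.

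Upk3b encodes a uroplakin, a membrane protein of the urothelial plaque that mesothelium also makes. The gene (chromosome 5, 136038496 to 136046487) had 2957, 2464 and 2545 CPM in MOSE-PAX8, against 3944, 4556 and 4452 CPM in MOSE-NEO. The fall was 1.63-fold without overlap (log2 fold change -0.70 ± 0.11 SE, edgeR adjusted p = 0.0016). Upk1b, a tetraspanin that pairs with the single-span uroplakins in urothelium (chromosome 16, 38773184 to 38800328), had 1477, 1196 and 1252 CPM in MOSE-PAX8 and 2287, 2090.5 and 2558 CPM in MOSE-NEO. It was 1.77-fold lower, again with no overlap (edgeR adjusted p = 0.00101). In both genes MOSE-PAX8 replicate 1 was the highest library of its line. The number of Upk1b counts per Upk3b count was 0.485 to 0.499 in MOSE-PAX8 and 0.459 to 0.58 in MOSE-NEO, overlapping ranges. The other uroplakins of urothelium were close to absent: Upk3a had 0 counts in every library, Upk2 had 0 counts in MOSE-PAX8 and 1 in MOSE-NEO, and Upk1a had 0.827 ± 0.582 CPM in MOSE-PAX8 and 0.733 ± 0.253 CPM in MOSE-NEO (SD, n = 3) and was not called.

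Lrrn4 encodes a membrane protein with leucine-rich repeats that serves as a mesothelial marker, on chromosome 2 (132868305 to 132880891). Its levels were 973.9, 843.5 and 855.4 CPM in MOSE-PAX8 and 1591, 1738 and 1822 CPM in MOSE-NEO. The lines were wide apart (log2 fold change -0.95 ± 0.10 SE, edgeR adjusted p = 0.000185). Lrrn4 had 0.329 to 0.342 counts per Upk3b count in MOSE-PAX8 and 0.381 to 0.409 in MOSE-NEO, ranges without overlap. Of its paralogs, Lrrn2 was 6.34-fold lower, at 0.174 CPM in MOSE-PAX8 and 1.11 CPM in MOSE-NEO. Lrrn1 had 18, 13 and 19 counts in the MOSE-PAX8 libraries and 0 in each MOSE-NEO library, which makes it at least 14.6-fold higher, taking 3 counts over the MOSE-NEO libraries as the limit that a count of 0 allows.

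Mesothelin and its binding partner MUC16, the CA125 antigen, were the genes without a call. Msln (chromosome 17, 25748613 to 25754378) had 283.6, 245.1 and 228.8 CPM in MOSE-PAX8, against 286.1, 284.6 and 242.2 CPM in MOSE-NEO. Its libraries overlapped, and the 95% interval of the log2 fold change ran from -0.34 to 0.14 (edgeR adjusted p = 0.511). Muc16 (chromosome 9, 18495455 to 18674530) had 329.3, 315.5 and 171.5 CPM in MOSE-PAX8, against 543.7, 459.2 and 347.0 CPM in MOSE-NEO. The lines did not overlap, but the spread within them was the widest of the 10 genes, with coefficients of variation of 32.1% in MOSE-PAX8 and 21.9% in MOSE-NEO. The estimate of -0.73 ± 0.25 (SE) was as large as that of Wt1 or Upk3b, and it missed the threshold narrowly (edgeR adjusted p = 0.0522). It passed in 7 of 15 other settings, over a range of edgeR, DESeq2 and limma-voom adjusted p of 0.00209 to 0.158. Among these were the fits without MOSE-PAX8 replicate 1, MOSE-PAX8 replicate 2 or MOSE-NEO replicate 3, with edgeR adjusted p of 0.0453, 0.0418 and 0.0295. Muc16 did not pass without MOSE-NEO replicate 1, MOSE-NEO replicate 2 or MOSE-PAX8 replicate 3 (edgeR adjusted p = 0.158, 0.119 and 0.0928). Without MOSE-PAX8 replicate 3, its lowest library, the log2 fold change was -0.48. There were 0.777 to 1.33 Msln counts per Muc16 count in MOSE-PAX8 and 0.526 to 0.698 in MOSE-NEO.

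**Figure D2:**
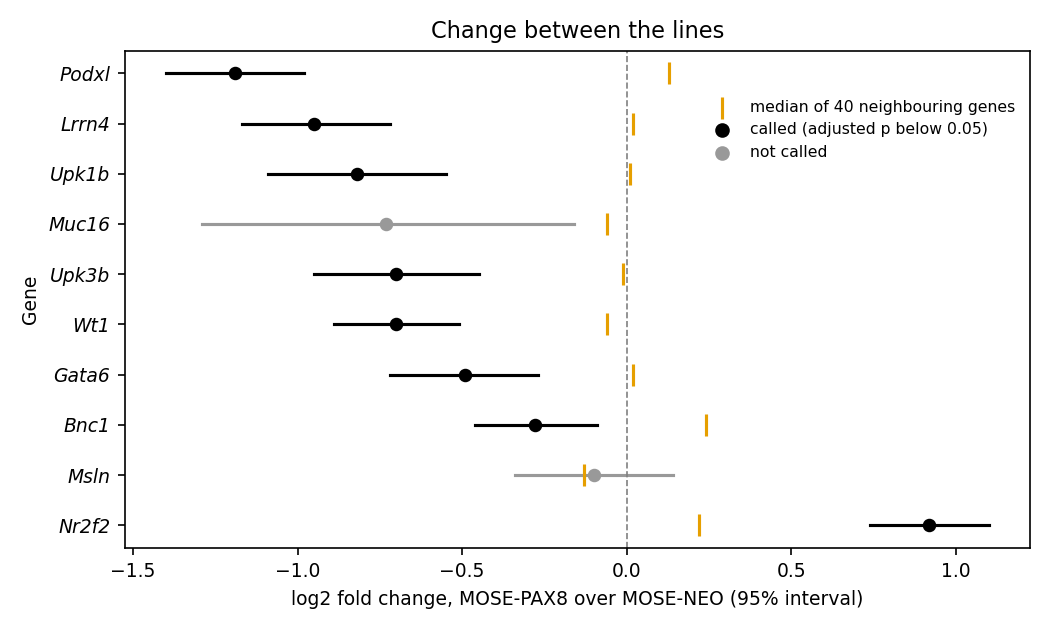
Log2 fold change of each gene, MOSE-PAX8 over MOSE-NEO, with its 95% interval from the edgeR fit. Black points were called and grey points were not. Orange ticks mark the median of the 40 nearest tested genes on the same chromosome. Podxl has the most negative value, -1.19, and Nr2f2 alone lies above 0.

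Per kilobase of merged exons, the order of the levels was the same in both lines: Upk3b, Upk1b, Podxl, Lrrn4, Wt1, Bnc1, Msln, Gata6, Muc16 and Nr2f2. Upk3b had 752.3 ± 74.9 CPM per kilobase in MOSE-PAX8 and 1223 ± 92.7 in MOSE-NEO, and Nr2f2 had 3.38 ± 0.115 and 1.78 ± 0.0614 in those lines (SD, n = 3). Upk1b had 626.3 ± 71.1 CPM per kilobase in MOSE-PAX8 and 1107 ± 112.4 in MOSE-NEO. On this length it was below Upk3b in every library, at 0.82 to 0.844 of its level in MOSE-PAX8 and 0.775 to 0.98 in MOSE-NEO. Podxl and Lrrn4 had 263.8 ± 6.06 and 239.8 ± 19.4 CPM per kilobase in MOSE-PAX8, and 603.1 ± 41.0 and 462.2 ± 31.4 in MOSE-NEO. Bnc1 and Msln were close in MOSE-PAX8, at 83.9 ± 5.14 and 82.4 ± 9.19 CPM per kilobase. Their order turned in both lines when the longest protein-coding transcript was used as the length. Wt1, with 6195 bases of merged exons and a longest coding transcript of 3090, reached 116.4 CPM per kilobase in MOSE-PAX8 and 189.7 in MOSE-NEO on the first length, and 233.5 and 380.3 on the second.

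Nr2f2 and Bnc1 both lie on chromosome 7 among genes that were mostly higher in MOSE-PAX8. Of the 40 nearest tested genes, 31 had a log2 fold change above 0 around Nr2f2 (median 0.22, 16 called higher and 2 lower) and also 31 around Bnc1 (median 0.24, 16 called higher and 4 lower). The change of Nr2f2 exceeded that of 34 of its 40 neighbours, and that of Bnc1 was below 35 of its 40. With the local median removed, an alternative added after the data were seen, Nr2f2 remained higher (log2 fold change 0.70) and Bnc1 was lower by more (-0.52), and both were called. Around Podxl the median was 0.13, and none of the 40 neighbours had a change below that of Podxl. The neighbours of Wt1 had a median of -0.06, with 3 of 40 below Wt1 itself, Wt1os among them.

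**Figure D3:**
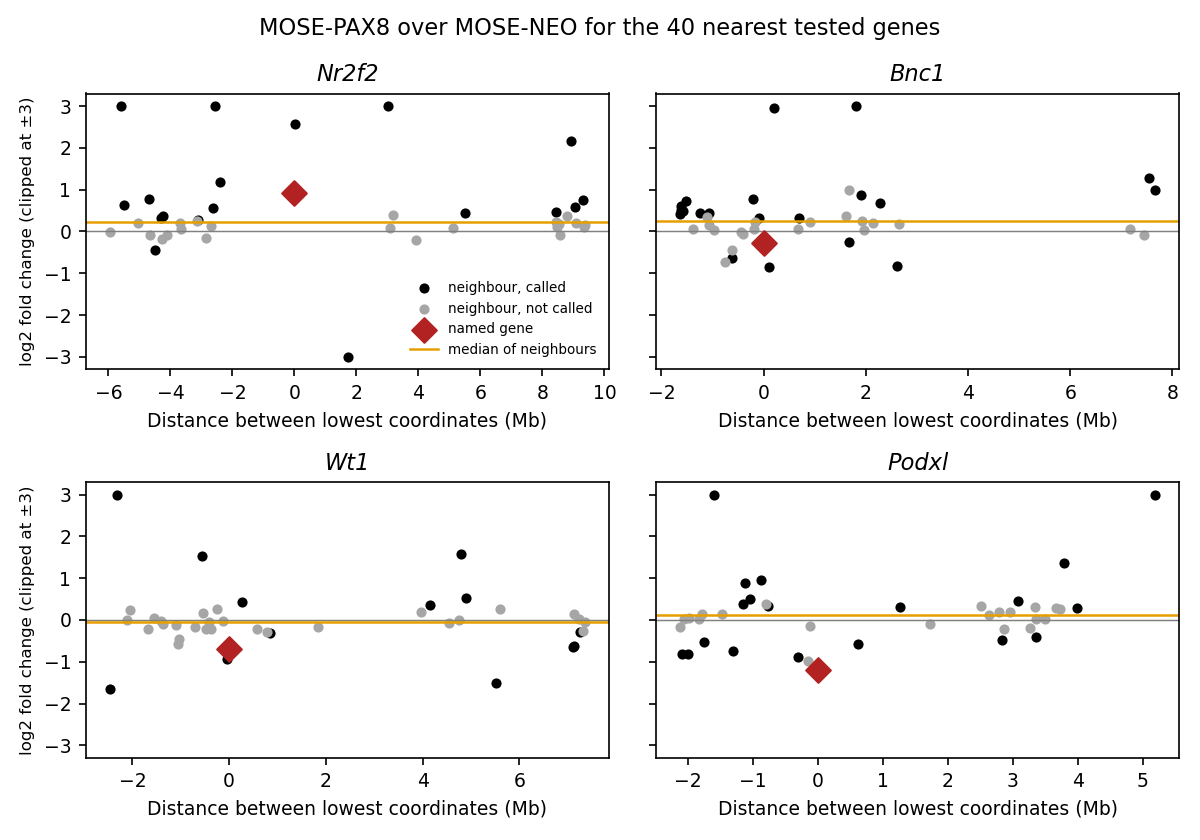
Log2 fold change, MOSE-PAX8 over MOSE-NEO, of the 40 nearest tested genes around Nr2f2, Bnc1, Wt1 and Podxl (20 on each side), against the distance between the genes' lowest coordinates in Mb. The named gene is a red diamond, called neighbours are black, others grey, and the orange line is the neighbours' median (0.22, 0.24, -0.06 and 0.13). Values past ±3 are drawn at ±3.

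Among other genes of the mesothelium and ovarian surface, more fell than rose and most were not called. Of 27 listed genes 20 were tested, 8 fell, 1 rose and 11 were not called, where 16.1% of all tested genes were called lower and 17.9% higher, with a median log2 fold change of -0.20, against 0.01 over all genes. Aldh1a2, the retinoic acid enzyme of the coelomic epithelium, had 1 count in all MOSE-PAX8 libraries and 3466 in the MOSE-NEO libraries. Nkain4, a marker gene of mesothelium, was 3.07-fold lower at 14.0 ± 2.42 CPM in MOSE-PAX8 and 42.9 ± 3.80 CPM in MOSE-NEO, and caveolin 1 (Cav1) was 1.59-fold lower (SD, n = 3; edgeR adjusted p = 5.89e-05 and 0.000369). The fall also took in keratin 7 (Krt7, 1.84-fold), Gpm6a (1.52-fold), the chemerin gene Rarres2 (1.99-fold) and Ezr. Krt8 was called lower at 0.317 CPM in MOSE-PAX8 and 0.788 CPM in MOSE-NEO, while its partner Krt18 stood at 583.7 ± 104.1 CPM in MOSE-PAX8 and 661.2 ± 39.5 CPM in MOSE-NEO. Krt8 has transcripts of 2 other genes at 95% identity or more and its counts are uncertain, whereas no such match of at least 100 bases was found for the 10 genes. Cdh2 (N-cadherin) was the gene that rose, 2.55-fold. Podoplanin (Pdpn), Efemp1 and Rspo1 had 262.8, 299.6 and 71.7 CPM in MOSE-PAX8 and 237.9, 307.1 and 78.1 CPM in MOSE-NEO and were not called.

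Genes tied to the 10 by family, binding or regulation moved in both directions, and their counts are to be read against 17.9% of all tested genes called higher and 16.1% called lower. Among 14 tested paralogs 5 rose and 3 fell, with a median of 0.22. Egr1 and Egr2, zinc finger factors whose DNA-binding domain resembles that of WT1, rose 8.37-fold and 10.7-fold, with Egr1 at 45.7, 70.2 and 53.4 CPM in MOSE-PAX8 and 6.89, 8.0 and 5.41 CPM in MOSE-NEO (edgeR adjusted p = 1.37e-05 and 7.39e-05). Of 8 tested partner genes 4 fell, Zfpm1 (FOG1, a cofactor of GATA proteins, 1.53-fold) and Basp1 (a corepressor of WT1, 1.33-fold) besides Ezr and Slc9a3r1, and 1 rose, Lgals1 (galectin 1, reported to bind MUC16, 1.47-fold). Zfpm2 (FOG2) had 60.4 ± 5.14 CPM in MOSE-PAX8 and 59.2 ± 7.35 CPM in MOSE-NEO (SD, n = 3), and Wtap had 59.9 and 61.6 CPM, both without a call. Of 15 tested genes reported to be regulated by WT1, in either direction, 4 rose and 6 fell, with a median of 0.03. The FGF pathway inhibitor Spry1 rose 81.2-fold, Igf1r 2.27-fold and Wnt4 7.63-fold, and Cdkn1a was 4.29-fold lower, besides Aldh1a2 and Podxl.

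Genes of the change by which mesothelial cells become mesenchymal also split. Of 13 tested 7 rose and 2 fell, beside 17.9% of all tested genes called higher and 16.1% called lower, with a median log2 fold change of 0.24. Acta2 (smooth muscle actin) rose 44.9-fold and Tagln (transgelin) 100.3-fold, whereas the collagen genes Col1a2 and Col3a1 were 2.58-fold and 1.87-fold lower (edgeR adjusted p from 2.75e-06 for Acta2 to 0.000365 for Col3a1). The repressors Twist1 and Zeb2 had 9.43 ± 0.791 and 142.9 ± 6.65 CPM in MOSE-PAX8 and 9.52 ± 0.585 and 138.8 ± 6.40 CPM in MOSE-NEO (SD, n = 3) and were not called.

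**Figure D4:**
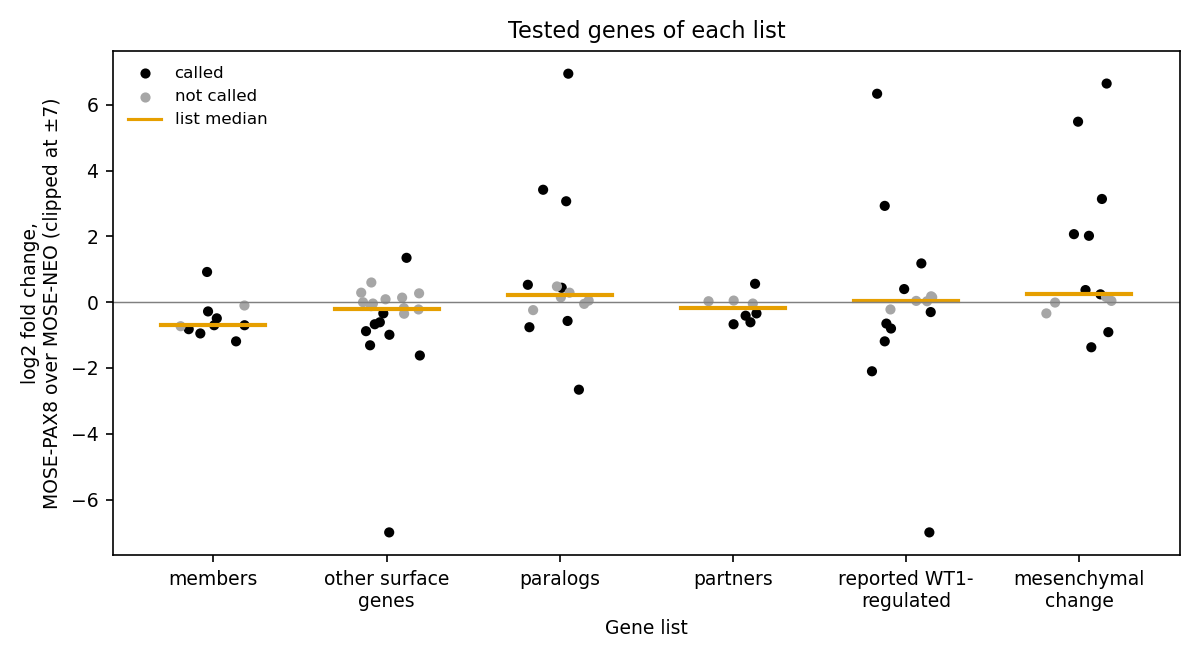
Log2 fold change, MOSE-PAX8 over MOSE-NEO, of the tested genes of 6 lists. Each point is a gene, black if called and grey if not, spread sideways for visibility, and the orange line is the list median: -0.70 for the 10 genes, -0.20 for other surface genes, 0.22 for paralogs, -0.19 for partners, 0.03 for genes reported as regulated by WT1 and 0.24 for the mesenchymal change. Values past ±7 are drawn at ±7.

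By distance between centred log2 CPM values over the 6 libraries, among 9041 other genes with at least 10 CPM in either line, the genes closest to Wt1 were Inpp5k (distance 0.0625), Homez and Wasf1, and those closest to Podxl were B3gnt7 (0.115), Fkbp11 and Inka2. With 6 libraries in 2 lines, this likeness mainly picks genes with a log2 fold change near that of Wt1 (-0.72, -0.72 and -0.69) or Podxl (-1.19, -1.25 and -1.25).

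Markers of other cell types were measured beside these genes. Their calls are to be read against 17.9% of all tested genes called higher and 16.1% called lower. The summed level of 8 leukocyte markers was 8.74 to 10.1 CPM in MOSE-PAX8 and 9.09 to 16.8 CPM in MOSE-NEO. It came mostly from Csf1r and Cd68, and Adgre1 was at 0. Csf1r was called lower, 2.52-fold, and Ptprc was called higher, with 196 counts in MOSE-PAX8 and 1 in MOSE-NEO. The 6 endothelial markers summed to 0.189 to 0.524 CPM in MOSE-PAX8 and 0.348 to 1.03 CPM in MOSE-NEO, and Cdh5 was at 0. Of the 9 granulosa and theca markers 3 were tested. Foxl2 rose, with 182 counts in MOSE-PAX8 and 1 in MOSE-NEO, and Star and Inha fell 1.28-fold and 1.31-fold. The 9 summed to 373.9 to 414.1 CPM in MOSE-PAX8 and 442.0 to 541.2 CPM in MOSE-NEO, with Fshr, Cyp19a1 and Lhcgr at 0. The 6 fibroblast markers, Col1a1, Col3a1 and Dcn above all, summed to 12400 to 13186 CPM in MOSE-PAX8 and 19901 to 23254 CPM in MOSE-NEO, with Pdgfra, Lum and Postn at 6 to 12 counts each in MOSE-PAX8 and 3 to 10 in MOSE-NEO. The 7 oviduct markers summed to 45.6 to 71.3 CPM in MOSE-PAX8 and 85.2 to 104.4 CPM in MOSE-NEO, with Epcam and Sox17 at 0. Only 2 of the 7 were tested, Cldn3 and Ovgp1, and both were called lower. The 7 urothelial markers summed to 9.71 to 12.0 CPM in MOSE-PAX8 and 4.04 to 5.51 CPM in MOSE-NEO, mostly Foxa1, which rose, while Grhl3 was 2.49-fold lower. The 6 podocyte markers summed to 255.5 to 362.2 CPM in MOSE-PAX8 and 67.4 to 83.2 CPM in MOSE-NEO, mostly from Synpo at 291.5 CPM in MOSE-PAX8 and 58.1 CPM in MOSE-NEO, with Tcf21 at 19.6 CPM in MOSE-PAX8 and 16.4 CPM in MOSE-NEO. The part of these markers in the results was not tested.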

How the data were processed

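RNA sequencing libraries of MOSE-PAX8 and MOSE-NEO cells, 3 each, were analysed from the authors' deposited raw read counts per gene. The submitters' processing notes name the mm10 build and, without an order, cutadapt 1.13, STAR, HTSeq 0.6.1p1 and DESeq2. Not given in the sources used here are the gene models, whether counting used strand, and how reads matching several places were handled. Groups and replicate numbers came from the sample titles. Symbols, coordinates (mm10, counted from 1) and exon lengths were taken from GENCODE M21, which matched 24991 of 25006 identifiers, and promoter windows from RefSeq.

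MOSE-PAX8 was compared with MOSE-NEO in edgeR 4.0.16 (R 4.3.3) with TMM factors, filterByExpr, the quasi-likelihood test and Benjamini-Hochberg adjustment at 0.05 over all 12313 genes tested. Standard errors were worked back from the estimate and its F statistic. Libraries of a line differed by 13.3 to 42.6 times the sampling variance, so none was treated as a library deposited more than once. The fit was tested on simulated counts. Limits from counts of 0 use 3 counts and, like all counting limits, cover counting error only.

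The alternatives were RLE and upper-quartile factors, DESeq2 1.42.0, limma-voom (limma 3.58.1), no low-count filter, leaving out 1 library at a time, a block for the replicate number, and a filter of 1 CPM in 3 libraries. Removing the local chromosome median, leaving out the 2 lincRNA-rich libraries and using the longest coding transcript as length were added after seeing the data. The genes and lists were chosen with earlier results of these data known. The rule for named genes took all 10 genes, up to 3 called genes per direction of each list and the 3 genes nearest to Wt1 and to Podxl. Other list members are named as examples, chosen after their values were seen.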

Additional observations from a re-analysis of the deposited data

How the results depend on the processing

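Over 15 other settings, 6 to 8 of the 10 genes were called lower and 1 higher, and 2859 to 4272 of all genes were called. With 1 library left out in turn, 6 to 8 of the 10 genes were called lower and 1 higher, and 2859 to 3908 of all genes were called, the fewest without MOSE-PAX8 replicate 3. Wt1, Upk3b, Upk1b, Lrrn4, Podxl, Gata6 and Nr2f2 kept their direction and their call in all 15. Bnc1 lost its call in 4 settings, each with 1 library left out, and Muc16 gained one in 7. Msln was not called in any, and its log2 fold change turned to 0.02 with the local chromosome median removed, since its neighbours had a median of -0.13. With the replicate number as a block (the replicate block), 3933 genes were called, 8 of the 10 genes lower and 1 higher, Muc16 among the lower (edgeR adjusted p = 0.00209). Same-numbered libraries were not alike throughout, with deviation correlations of -0.488, 0.0645 and 0.478. Deviations were taken from the mean of each line's 3 libraries, which forces mixed signs. Whether the numbers pair the samples therefore cannot be settled from these values. Differently numbered libraries ranged from -0.714 (MOSE-PAX8 replicate 2 with MOSE-NEO replicate 3) to 0.671 (MOSE-PAX8 replicate 2 with MOSE-NEO replicate 1, the lincRNA-rich libraries). Nr2f2 had the fewest counts of the 10 genes, 947 to 1023 per library in MOSE-PAX8 and 368 to 475 in MOSE-NEO, and so the largest relative counting error.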
